A study of Mus musculus with 216 samples.

Results

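The young hypothalamus makes up 1 of the 18 groups of 12 libraries (6 tissues at 3 ages) in a mouse poly(A) RNA-seq series on the circadian transcriptome with age. Its 12 libraries were compared here with the 60 young libraries of 5 other tissues. The libraries were chosen by their tissue and age labels and by no measured value. All mice were males of the strain C57B6/J-NIA with no treatment named, and the young mice were 6 months old. Hypothalamus, adrenal gland, heart, kidney, lung and skeletal muscle each have 12 young libraries, 1 for every 4 h from circadian time 18 to circadian time 62. Each library pooled 2 samples. The same tissues at 18 months (aged) and 27 months (old), again with 12 libraries each, serve below as libraries that the young comparison did not use. The labels do not say whether the 6 tissues came from the same mice, and there is 1 library per tissue and time. The p-values therefore measure the spread between these libraries, time of day included. The series was built to follow rhythms with age. The contrast of tissues addresses a simpler question, which genes set the hypothalamus apart from peripheral organs at 6 months.

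The hypothalamus is a small region at the base of the brain that governs feeding, body temperature, water balance, reproduction, stress responses and the daily clock. Many of its neurons signal with neuropeptides, short peptides cut from a precursor protein, stored in dense-core granules and released within the brain or, from the magnocellular neurons, into the blood. Its nuclei arise under transcription factors that mark single cell groups, and inhibitory (GABA) and excitatory (glutamate) neurons lie intermingled within them.

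The labelled tissue was checked against Avp and Pmch, the precursors of vasopressin and of melanin-concentrating hormone, which are made by hypothalamic neurons. Levels are in CPM, a gene's count scaled to the total count of its library, and, unless stated otherwise, are given as the lowest, median and highest of 12 libraries. Avp (chr2:130580620-130582554, GRCm38) stood at 265, 316 and 544 CPM in hypothalamus, and no other library exceeded 0.305 CPM. Pmch (chr10:88091072-88092375) stood at 326, 366 and 474 CPM, against at most 0.141 CPM elsewhere. Every hypothalamic library lay far above every other library for both genes. In every hypothalamic library the marker lists of the other tissues lay below the lowest library of their own tissue. The 8 heart genes summed to 68.4 to 134 CPM (at least 36520 CPM in heart). The 9 skeletal muscle genes summed to 22.5 to 48.5 CPM (at least 61670 CPM in muscle). The 8 adrenal steroid and catecholamine genes summed to at most 3.22 CPM and the 8 lung genes to at most 3.18 CPM, but the 10 kidney genes reached 363 CPM at circadian time 30 (22.6 to 92.3 CPM in the other 11 libraries).

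**Figure D1:**
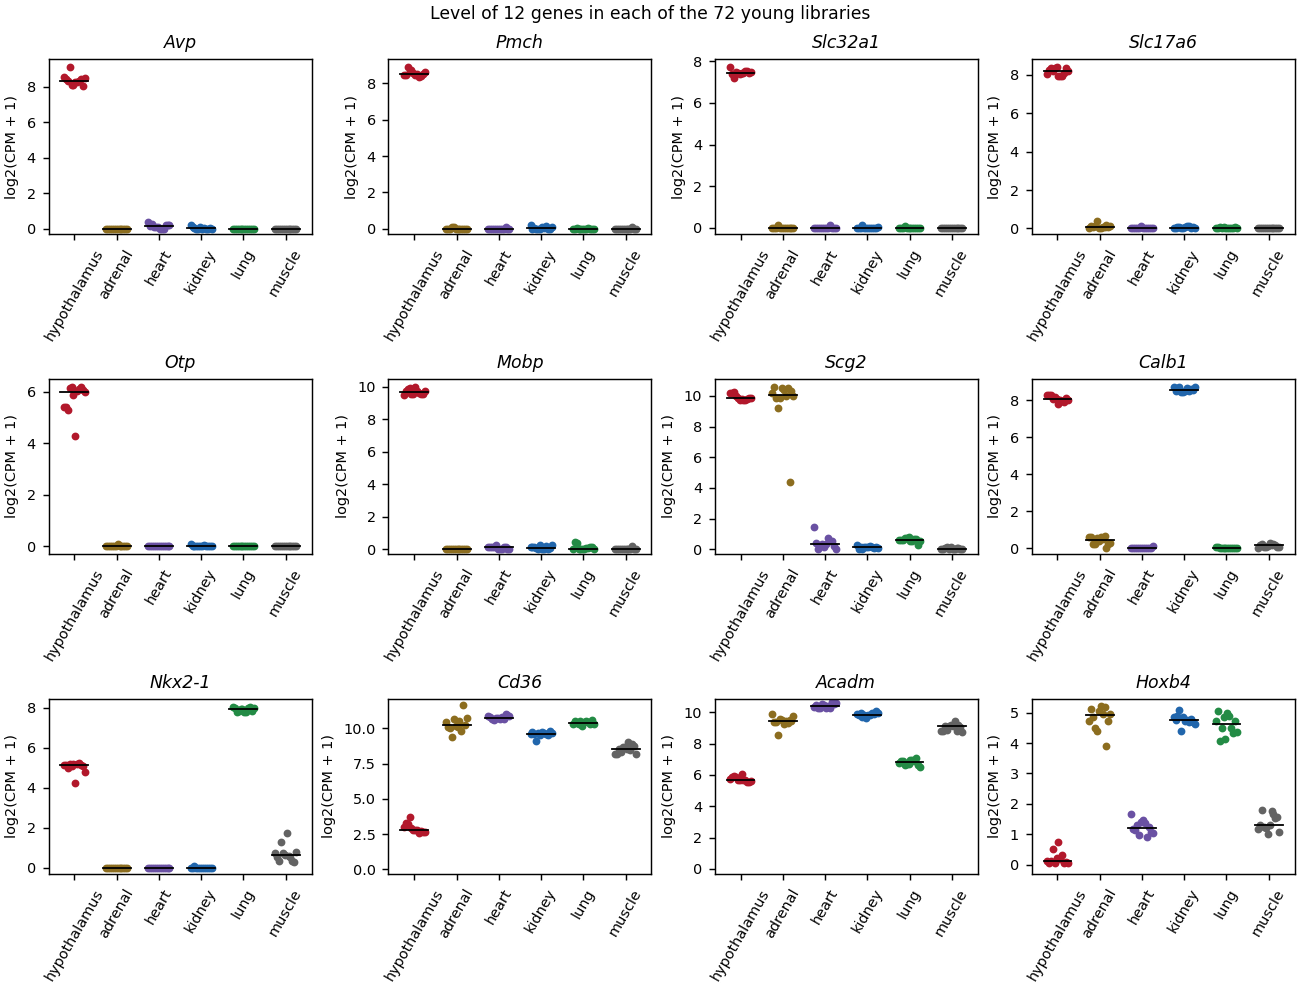
Levels of 12 genes in the 72 young libraries as log2(CPM + 1) (vertical axes), 1 point per library by tissue (horizontal axes), with bars at the medians of 12. Avp, Pmch, Slc32a1, Slc17a6, Otp and Mobp are high in hypothalamus and near 0 elsewhere, Scg2, Calb1 and Nkx2-1 are shared with adrenal, kidney and lung, and Cd36, Acadm and Hoxb4 are lowest in hypothalamus.

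The hypothalamic libraries held 23.3 to 29.4 M (mega) counts (median 26.8 M), and those of the other young tissues 9.44 to 27.6 M counts. They resembled each other closely (Spearman's rho over 20682 genes 0.982 to 0.997 for the 66 pairs), although no pair agreed within sampling noise (lowest chi-square per degree of freedom 4.36). 4 of them, at circadian times 18, 22, 26 and 42, stood apart by base composition. The 12614 genes with a mean of at least 5 CPM in hypothalamus were sorted into 10 classes by GC content. The median deviation from each gene's hypothalamic mean, in the highest-GC class minus the lowest-GC class, was -0.212, -0.230, -0.431 and -0.175 log2 units in these 4 libraries and 0.016 to 0.250 in the other 8. The young libraries of the other tissues lay between -0.163 and 0.151. The aged hypothalamus showed the same 4 times apart (-0.333 to -0.242 against 0.000505 to 0.292 at the other times). In the old hypothalamus these 4 times did not stand apart (-0.287 to 0.452). There the libraries ran from -1.12 at 34 to 0.72 at 38. The labels name no batch. The genes that differed from all 5 tissues were also counted without these 4 libraries and with them alone, alternatives chosen after seeing the data.

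**Figure D2:**
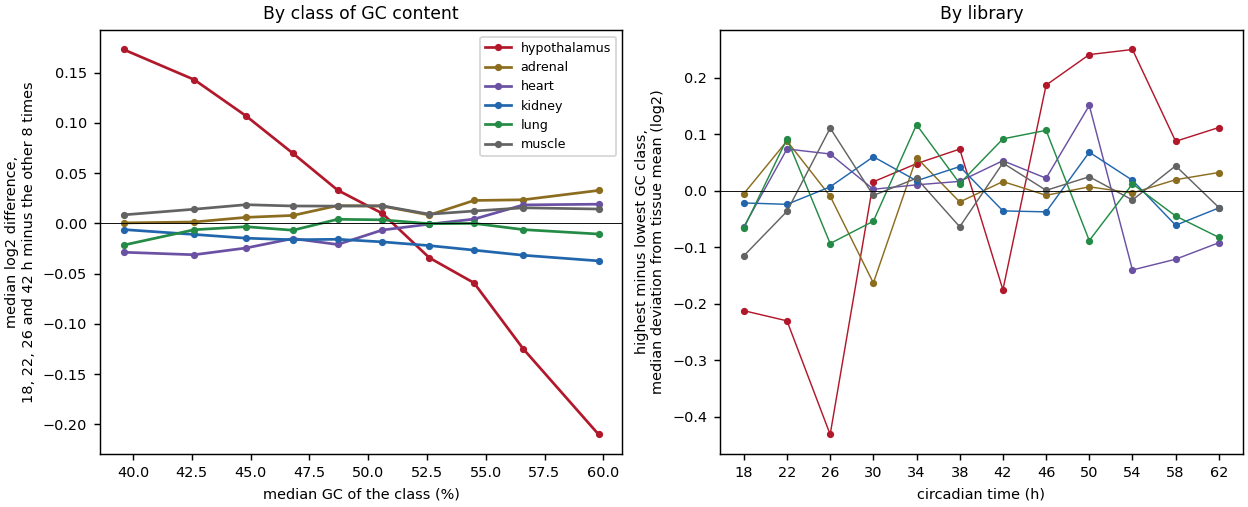
Left, the median log2 difference between the libraries at 18, 22, 26 and 42 h and the other 8 (vertical axis) in 10 classes of genes by GC content (horizontal axis, %), for each young tissue. Right, the highest-GC class minus the lowest-GC class in each library (vertical axis, log2 deviation from the tissue's mean) by circadian time (horizontal axis, h); among the hypothalamic libraries only these 4 lie below 0.

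Markers of neighbouring tissue also varied between the 12 libraries. Tcf7l2 and Shox2, transcription factors of the thalamus, stood at 59.6 to 90.6 CPM and 14.7 to 26.5 CPM at circadian times 34, 38, 54, 58 and 62, and at 17.3 to 40.9 CPM and 0.284 to 6.31 CPM at the other 7. Slc17a7, the vesicular glutamate transporter of cortex and hippocampus, stood at 202, 129 and 143 CPM at 42, 46 and 50 and at 8.41 to 19.1 CPM elsewhere. Ppp1r1b, a striatal signalling protein, reached 208 CPM at 42. Gh, the pituitary growth hormone, reached 489 CPM at 30 and 224 CPM at 54, and Ttr, the transport protein of choroid plexus, 113 CPM at 46. Among the controls, the young adrenal library at 54 held 693 CPM of the adrenal list, against a median of 14610 CPM over the 12. Without it the genes at least 4-fold higher than in each tissue numbered 1946, against 1898 with it. The part of any of these in a result was not tested, beyond the recounts without the libraries concerned. In bulk tissue, fewer cells of a type and less RNA per cell cannot be told apart.

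**Figure D3:**
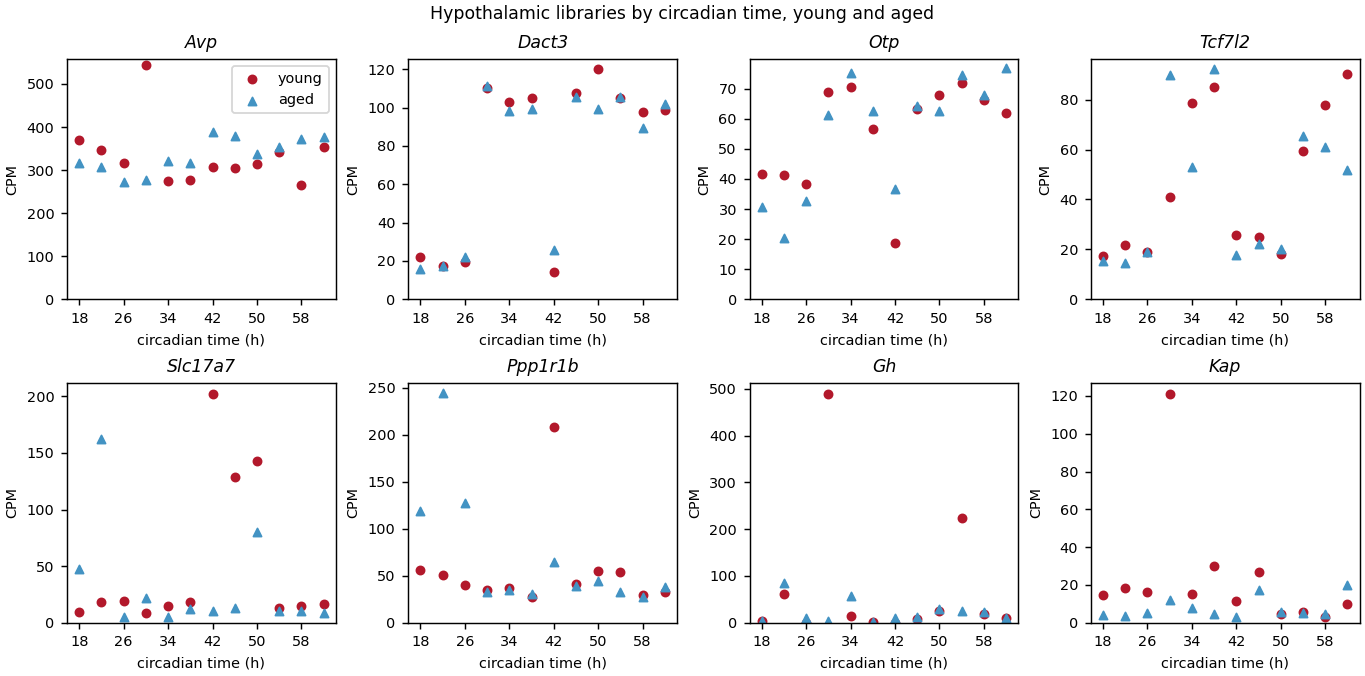
Levels of 8 genes (vertical axes, CPM) in each young (circles) and aged (triangles) hypothalamic library by circadian time (horizontal axes, h). In the young libraries Slc17a7 is high at 42, 46 and 50, Tcf7l2 at 34, 38, 54, 58 and 62, Gh at 30 and 54, and Dact3 is low at 18, 22, 26 and 42, as in the aged libraries.

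With 12 libraries a group, most genes differed between hypothalamus and any 1 tissue. Of 20682 genes tested with edgeR's quasi-likelihood test (two-sided, Benjamini-Hochberg adjusted p under 0.05), 85.2% differed from adrenal, 86.2% from heart, 86.1% from kidney, 87.3% from lung and 86.5% from muscle. More of them were higher in hypothalamus than lower in each comparison, from 9237 higher and 8577 lower against kidney to 10340 higher and 7497 lower against heart. The split moved with the scaling. Without normalization factors, an alternative chosen after seeing the data, the share of higher calls went from 58% to 66.9% against heart and from 55.8% to 71.6% against muscle, and it turned to fewer higher than lower against adrenal (54.1% to 47.7%) and lung (53.8% to 47.3%). The share against adrenal was also under 50% in each run without 1 hypothalamic library (48.9% to 49.1%), in the second cycle alone (49.7%) and after thinning to the lowest total (48.3%, with 49.5% against kidney). The median log2 fold change of all genes moved with it, from 0.31 to 0.70 against heart and from 0.26 to 0.94 against muscle. Changes are read below against those medians of 0.06 to 0.31. Levels in CPM carry no such factor, whereas fold changes do, so the ratio of 2 levels can differ from the fold change beside it, most of all against muscle.

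A stricter question is which genes differed from all 5 tissues at once. There were 4583 genes (22.2%) higher in hypothalamus than in each tissue and 2596 (12.6%) lower than in each. Of these, 1898 (9.18%) were at least 4-fold higher than in each, and 436 (2.11%) at least 4-fold lower. The 4-fold higher genes numbered 1994 without the 4 libraries named above and 1886 with those 4 alone, and the 4-fold lower genes 440 and 529. Separation was as wide by raw level. For 3296 genes (15.9% of those tested) the lowest hypothalamic library lay above the highest of the 60 others, and for 793 genes (3.83%) the highest lay below all 60. The 1898 genes took up 18.2 to 19.6% of all counts in the hypothalamic libraries. In the other tissues they took up at most 1.71% (adrenal), and at most 0.801% outside it. By its mean profile the hypothalamus was nearest to adrenal (Spearman's rho 0.757 across genes, 0.648 to 0.673 for the other 4), a description across genes that are not independent.

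Many genes of hypothalamus are at or near 0 elsewhere. Such a gene passed the filter on low counts only through hypothalamus and could hardly fail to differ. The counts of called members given for each gene list are therefore descriptions. They are to be read beside the background shares of 22.2% (higher than in each) and 9.18% (4-fold higher). For lower calls the background shares were 12.6% (lower than in each) and 2.11% (4-fold lower). The smallest of a gene's 5 log2 fold changes, that against the closest tissue, had a median of -1.02 over all genes tested.

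Neuropeptide precursors were among the lists furthest above the other tissues. Of 33 on the list, 30 were tested, 23 were higher in hypothalamus than in each tissue and 21 at least 4-fold higher, with a median smallest log2 fold change of 6.22. Together the 33 summed to 1828 to 2470 CPM in hypothalamus and to at most 303 CPM in adrenal, 115 CPM in lung and 47.0 CPM in the rest. Oxt (chr2:130576173-130577054), the oxytocin precursor of magnocellular neurons, stood at 127, 181 and 253 CPM. Hcrt (chr11:100761069-100762931), the precursor of the arousal peptides hypocretin (orexin) 1 and 2, stood at 83.8, 100.1 and 138 CPM. Trh, whose product drives the thyroid axis, stood at 102, 129.8 and 185 CPM. None of these groups overlapped, since no other library exceeded 0.157 CPM for any of the 3. The log2 fold change against the closest tissue was 12.79 ± 0.17 (SE) for Pmch (kidney), 12.16 ± 0.22 for Hcrt (adrenal), 11.87 ± 0.22 for Oxt (kidney), 11.75 ± 0.22 for Trh (lung) and 11.12 ± 0.21 for Avp (heart). The adjusted p for Pmch was 1.13e-64. These contrasts rest on few counts in the other tissues. All 60 other libraries together held 17 counts of Pmch and 9 of Hcrt.

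Precursors of peptides that act on feeding and growth were also high. Pomc, cut to the satiety signal alpha-MSH and to ACTH, stood at 39.3, 88.7 and 238.1 CPM, and Cartpt, its partner in the arcuate nucleus, at 86.7, 107 and 129.9 CPM. Both lay above every other library (at most 1.88 CPM and 4.13 CPM, each in adrenal). The highest Pomc levels, 238.1 and 155 CPM, were at circadian times 54 and 30, the 2 libraries with the most Gh. Pomc is also made by the pituitary, and what share came from there was not tested. Sst, the somatostatin precursor that restrains growth hormone release, stood at 99.9, 118 and 139.5 CPM, and Ghrh, which promotes it, at 3.4, 6.77 and 9.66 CPM. Crh, the trigger of the stress axis, was low in level, at 4.16, 5.81 and 10.6 CPM, but still above all 60 others (at most 0.0807 CPM). Its log2 fold change against the closest tissue, lung, was 7.89 ± 0.29.

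Some precursors did not set the hypothalamus apart from all tissues. Npy, the appetite peptide of arcuate neurons and of adrenal chromaffin cells, stood at 13, 17.2 and 26.2 CPM in hypothalamus against 4.12, 112 and 159.9 CPM in adrenal, a log2 fold change of -2.32 ± 0.23. Agrp, its co-transmitter in the same arcuate neurons, stood at 2.28, 3.64 and 5.3 CPM and overlapped lung (at most 6.16 CPM, log2 fold change 0.49 ± 0.27). Gnrh1, the peptide at the head of the reproductive axis, stood at 1.73, 3.37 and 6.27 CPM and overlapped kidney (at most 3.28 CPM). Grp, Prok2 and Nucb2 were likewise neither higher nor lower than in all 5. Gal and Penk were called higher than in each, but by less than 4-fold against adrenal (1.14 ± 0.21 and 1.5 ± 0.20). Npff, a pain-modulating peptide, was called lower than in each (-0.44 ± 0.21 against heart, the closest). That call was lost without circadian times 34, 38, 58 and 62, without 18, 22, 26 and 42, and without normalization factors (alternatives chosen after seeing the data). Kiss1, with no count in the 72 libraries, Nmu and Galp were not tested. Per kilobase of exon, on which genes can be compared, the order of mean level in hypothalamus began with Avp (580.1 CPM per kb), Pmch (501), Oxt (341), Sst (166), Hcrt (138) and Trh (99.6).

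The machinery that cuts and packs these peptides was shared in part with adrenal, whose medulla is also neuroendocrine. Of 14 genes for prohormone processing and dense-core granules, 10 were higher than in each tissue and 8 at least 4-fold higher. Pcsk2, the convertase that makes the final cuts, stood at 266, 288 and 327 CPM against at most 15.7 CPM elsewhere (log2 fold change 5.27 ± 0.21 against adrenal). Vgf, a granule protein and peptide precursor, stood at 164, 262 and 323 CPM against at most 7.93 CPM (6.18 ± 0.22). Both were free of overlap. Pcsk1, the convertase that makes the first cuts, did overlap: 78.9, 88.7 and 122 CPM in hypothalamus and 1.15, 56.1 and 97.4 CPM in adrenal (0.97 ± 0.21). Chga and Chgb, the chromogranins of chromaffin cells, were lower than in adrenal by about the same amount (-2.22 ± 0.22 and -2.23 ± 0.22) and higher than in the other 4. Per kilobase, Cpe, which trims the cut peptides, led the group in hypothalamus (627 CPM per kb), ahead of Scg2 (384).

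Promoter sequence was examined for letters of a cAMP response element and of RE1, the site of the repressor REST, which silences neuronal genes in other cells. The windows come from the RefSeq promoter table of GRCm38.p6 (250 bases before to 50 after each gene start), and 14105 of the genes tested had an entry. The palindrome TGACGTCA is shown with its flanks for 3 members of the peptide lists, and RE1 letters for 2 neuronal genes, as examples among the members that hold these letters. All of those shown were called higher than in each tissue. Chgb and Scg2, which were not, also hold TGACGTCA, and Scg2 holds RE1 letters too. Capitals mark the motif letters, and each sequence reads 5′ to 3′ on the strand of its gene.
Sst (chr16:23890859-23890918, minus strand): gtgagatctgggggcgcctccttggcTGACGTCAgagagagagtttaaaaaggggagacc
Cartpt (chr13:99900762-99900821, minus strand): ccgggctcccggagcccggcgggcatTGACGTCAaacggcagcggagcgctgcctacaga
Pcsk1 (chr13:75089753-75089812, plus strand): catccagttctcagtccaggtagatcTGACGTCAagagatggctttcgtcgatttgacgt
Ptprn2 (chr12:116485718-116485747, plus strand): ccggtgGCGCTGTCCGGTGCTGAAgctcgg
Unc13a (chr8:71671725-71671754, minus strand): agGCGCTGTCCgcgcccccGGTGCTGAAgc

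In the first 3 windows the palindrome begins 48 (Sst), 112 (Cartpt) and 78 (Pcsk1) bases before the gene start. Among all genes tested, 3.11% held TGACGTCA, and among the 4-fold higher genes 3.25%, so the share was near the background. The other 2 windows hold the complement of both RE1 parts searched, TTCAGCACC (left) and GGACAGCGC (right), on the gene's opposite strand. Both strands were searched, and the 2 motifs share no overlap in these windows. Ptprn2 encodes a granule membrane protein, and Unc13a primes vesicles for release. The left part was held by 27 of 1294 4-fold higher genes with an entry (2.09%), by 72 of all 14105 tested (0.51%), and by 1 of 300 4-fold lower genes (0.333%). The right part was held by 1.16%, 0.78% and 0.667%. In the whole table of 27025 genes the shares were 0.433% (left part), 0.477% (right part) and 2.03% (TGACGTCA). A match is a description of letters and no test was made of these shares.

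Receptors for peptides and hormones were a mixed group: 20 of 36 were higher in hypothalamus than in each tissue, 15 of them at least 4-fold, and 2 were lower than in each. Calcr, the calcitonin receptor, which also serves amylin in feeding circuits, stood at 24, 38.8 and 49.6 CPM against at most 2.48 CPM elsewhere (4.98 ± 0.20 against lung). Mc3r and Mc4r, the melanocortin receptors that read the Pomc product, stood at 4.19, 7.86 and 10.3 CPM and 4.04, 5.26 and 8.74 CPM, against at most 0.0552 CPM and 0.188 CPM. Their ranges lay clear of the other tissues. Brs3, an orphan bombesin-type receptor tied to body weight, had no count in any of the 60 other libraries and stood at 4.77, 6.69 and 9.85 CPM. That is at least 316-fold higher, against a floor of 3 counts over the 12 libraries of heart, the shallowest group. Lepr, the leptin receptor, was lower than in lung (4.17, 7.24 and 11.7 CPM against 106, 146 and 195 CPM), and its counts cover all isoforms. Oxtr and Avpr1a, the receptors of oxytocin and vasopressin, were likewise lower than in 1 tissue (-0.69 ± 0.23 against adrenal and -1.11 ± 0.21 against kidney). Ghr, the growth hormone receptor, was lower than in each, at 27.3, 33.1 and 43 CPM (-1.77 ± 0.14 against lung, the closest from below). Insr, the insulin receptor, was lower than in each by a small margin (-0.21 ± 0.07 against lung), a call lost without circadian times 18, 22, 26 and 42.

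Transcription factors that pattern the hypothalamus followed the peptides. Of 34 on the list, 33 were tested, 23 were higher than in each tissue, 22 at least 4-fold, and none was lower than in each. The median smallest log2 fold change was 6.00. Otp, which specifies neuroendocrine neurons of the paraventricular nucleus, stood at 18.6, 62.6 and 71.8 CPM against at most 0.055 CPM elsewhere (11.86 ± 0.32 against kidney). Its low values, 18.6 to 41.7 CPM, were the libraries at 18, 22, 26 and 42, and the other 8 stood at 56.6 to 71.8 CPM. The log2 fold change was 12.08 without those 4 and 11.18 with them alone. Six3, a forebrain and eye-field factor, stood at 32.6, 50.4 and 61.8 CPM (10.63 ± 0.33 against lung), and Fezf1 at 12, 27.1 and 36.2 CPM (8.42 ± 0.25 against lung). No group overlapped for these 3. Foxb1, a forkhead factor of the mammillary region, stood at 14.7, 20.03 and 29 CPM and had no count in the 60 other libraries, at least 957-fold higher. Nkx2-4 and Sox14 were also without a count elsewhere (at least 443-fold and 166-fold higher).

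Of the 10 factors not called, several were high in 1 other tissue. Nkx2-1, required for both hypothalamus and lung, stood at 17.6, 33.7 and 37.1 CPM against 217, 243 and 263 CPM in lung (-2.69 ± 0.14). Nr5a1, the factor of the ventromedial nucleus and of steroid-making cells, stood at 3.47, 11.9 and 16 CPM against 8.23, 221 and 294 CPM in adrenal (-3.97 ± 0.21). Sim1, needed for the paraventricular nucleus, and Lhx1, a factor of the suprachiasmatic nucleus, were lower than in kidney (-0.53 ± 0.16 and -1.48 ± 0.14). Each of these 4 was higher in hypothalamus than in the 4 tissues other than the one named. Zfhx3 and Meis2 were not called either (0.03 ± 0.12 and -1.66 ± 0.17, both against adrenal), and Tbx3 was far higher in adrenal (-4.07 ± 0.18). Lhx6 was not called (adjusted p 0.0515 against heart, log2 fold change 0.47 ± 0.23), and it became a call without the young adrenal library at 54, without circadian times 34, 38, 58 and 62, with 18, 22, 26 and 42 alone, and without normalization factors. Lhx6 was highest at 18 and 42 (29.2 and 25.4 CPM, with 7.57 to 13.3 CPM in the others).

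Genes that make and move the fast transmitters marked both inhibitory and excitatory neurons. Gad1 and Gad2, the enzymes that make GABA, stood at 352, 387 and 525 CPM and 389, 443 and 558 CPM. Slc32a1 (chr2:158610767-158615748), which loads GABA into vesicles, stood at 146, 175 and 209.8 CPM, and the 60 other libraries held 8 counts in all. Slc17a6, the vesicular glutamate transporter of the hypothalamus and brainstem, stood at 241, 294 and 336 CPM against at most 0.299 CPM. For all 4 the hypothalamic libraries lay above all others. The log2 fold changes against the closest tissue were 13.16 ± 0.20 (Slc32a1, kidney), 11.83 ± 0.18 (Slc17a6, adrenal), 11.62 ± 0.15 (Gad2, lung) and 5.94 ± 0.21 (Gad1, adrenal). Slc6a11, a GABA transporter of astrocytes, was among the most distinctive genes of all, at 698, 789 and 872 CPM (12.20 ± 0.17 against muscle). Slc17a7 was called higher than in each (1.29 ± 0.38 against heart), but only the libraries at 42, 46 and 50 lay above heart (10.1, 16 and 22.7 CPM), and the other 9 lay within or below that range. Without circadian times 30, 42, 46, 50 and 54 the call was lost and the value was -0.36. Of 24 genes on this list, 13 were higher than in each tissue and 10 at least 4-fold, and none was lower than in each.

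Monoamine genes were mixed, with Slc6a3 and Slc18a2, the vesicular monoamine transporter, higher than in each tissue and Th, Hdc, Tph2 and Dbh not. Th, the first enzyme of catecholamine synthesis, stood at 33.5, 44.1 and 75 CPM against 6.29, 285 and 425 CPM in adrenal (-2.36 ± 0.23). Slc6a3, the dopamine transporter, was higher than in each (6.96 ± 0.39 against adrenal) and ranged widely, at 4.54, 14.4 and 66.8 CPM. Hdc, which makes histamine in the tuberomammillary nucleus and in mast cells, was lower than in lung (-0.66 ± 0.21). Tph2, the enzyme of brain serotonin neurons, stood at 0.442 to 1.01 CPM in 11 libraries and at 19.02 CPM at 46, where Dbh, the noradrenaline enzyme, was also highest (5.11 CPM, with 0.0385 to 0.332 CPM in the other 11). Tph2 overlapped adrenal (at most 17 CPM), and Dbh lay below every adrenal library. Tph2 and Slc5a7, the choline transporter, became calls without the young adrenal library at 54.

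The release machinery was high throughout. Of 26 genes for synaptic vesicle release, 22 were higher in hypothalamus than in each tissue and 21 at least 4-fold (median smallest log2 fold change 3.70). Syt1, the calcium sensor of release, stood at 693, 747 and 830.3 CPM against at most 75.4 CPM (4.2 ± 0.21 against adrenal). Snap25, which docks vesicles in neurons, stood at 926, 1040 and 1317 CPM against at most 76.7 CPM (4.60 ± 0.22). Rims1, a scaffold of the active zone, showed the widest gap of the list, at 82, 103 and 112 CPM against at most 0.849 CPM (8.06 ± 0.23). The 3 ranges were separate from all other libraries. The 3 members lower than in each were Snap23, Vamp3 and Vamp8, the forms that serve secretion and endosomes in most cells: Snap23 stood at 16.7, 19 and 22.3 CPM and Vamp8 at 12.7, 15.3 and 21.8 CPM (-1.57 ± 0.05 and -1.80 ± 0.08 against adrenal, the closest from below).

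Transmitter receptors were nearly all called. For GABA-A receptors, 16 of 18 subunits were tested, and 14 were at least 4-fold higher than in each tissue (median smallest log2 fold change 5.54). The exceptions were Gabrp, a subunit of peripheral epithelia that reached 198 CPM in lung and at most 0.124 CPM in hypothalamus, and Gabrr2. Gabra5, an extrasynaptic form, stood at 66.4, 78 and 101 CPM against at most 0.317 CPM (9.80 ± 0.24 against adrenal). It overlapped no other library. The subunits Gabre and Gabrq, both encoded on the X chromosome, stood at 11, 41.9 and 48.2 CPM and 60.6, 104 and 136 CPM. Of 18 ionotropic glutamate receptor subunits, 16 were higher than in each and 14 at least 4-fold. Grin2b, an NMDA receptor subunit, stood at 75.7, 112 and 143 CPM against at most 0.726 CPM (8.44 ± 0.23 against adrenal). Grin2c and Grin3b were the 2 not called. Glra2, a glycine receptor subunit, was named by its margin: 40.8, 49.2 and 66 CPM, with 1 count in the 60 other libraries.

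Orphan receptors and glial genes completed the 15 genes with the widest margin among those above 10 CPM. Gpr101 and Gpr26, receptors with no settled ligand, stood at 65.8, 113 and 127 CPM and 55.9, 67.3 and 83.3 CPM, with 3 and 2 counts in the 60 others. Mobp (chr9:120149707-120181484), a myelin protein, had the widest fitted margin (13.17 ± 0.24 against kidney) and stood at 731, 813 and 1022 CPM against at most 0.378 CPM. Olig2, the lineage factor of oligodendrocytes, stood at 40.3, 47.5 and 59.6 CPM, with 1 count elsewhere. All 4 were separate from every other library. The fitted margin of a gene with 0 or few counts elsewhere depends on the prior count, so their order is not read. The 15 were Mobp, Slc32a1, Gpr101, Pmch, Gpr26, Slc6a11, Olig2, Hcrt, Oxt, Glra2, Otp, Slc17a6, Trh, Foxb1 and Gad2. Of these, 4 were peptide precursors and 4 belonged to GABA or glutamate transmission.

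Voltage-gated channels held both neuronal and muscle isoforms. Of 32 genes, 20 were higher than in each tissue, 14 at least 4-fold, and Kcnq1, a cardiac and epithelial potassium channel, was lower than in each (-1.53 ± 0.20 against muscle). The neuronal sodium channels Scn1a and Scn2a stood at 113, 126 and 153 CPM and 229, 262 and 275 CPM (7.56 ± 0.21 against adrenal and 6.11 ± 0.14 against muscle). The muscle isoform Scn4a stood at 0, 0.115 and 0.213 CPM against 372, 610.4 and 701 CPM in muscle. Scn1a and Scn2a overlapped no other library. Cacna1a, the P/Q-type calcium channel of synapses, stood at 31.3, 112 and 152 CPM (2.77 ± 0.17 against adrenal). Its low libraries were those at 18, 22, 26 and 42. The log2 fold change was 3.15 without them and 1.39 with them alone, and it was a call in both.

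Metabolic enzymes were also compared by isoform. Of 25 glycolytic and creatine enzymes only 6 were higher than in each, a share of the list near the background: Hk1, Pfkp, Aldoc, Eno2, Ckb and Ckmt1. Aldoc, the brain aldolase, stood at 829, 909.6 and 1066 CPM against at most 21.2 CPM (5.61 ± 0.17 against kidney). Eno2, the neuronal enolase, stood at 731, 776 and 829 CPM against at most 35.5 CPM (5.29 ± 0.14 against adrenal). No other library reached the hypothalamic range of Aldoc or Eno2. Aldoa and Eno3, the muscle forms, were lower than in muscle (-3.34 ± 0.07 and -9.44 ± 0.22). Pgam2 and Ldha were lower than in each, and the call for Ldha was lost without circadian times 34, 38, 58 and 62 and with 18, 22, 26 and 42 alone.

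RNA-binding proteins that direct neuronal splicing were mostly higher: 15 of 21 than in each tissue and 10 at least 4-fold. Celf4 stood at 684, 735 and 771 CPM against at most 27.2 CPM (5.5 ± 0.15 against adrenal) and Rbfox3, the antigen of the NeuN antibody, at 115, 145 and 172 CPM against at most 5.6 CPM (5.38 ± 0.18). Both were separate from all other libraries. Ptbp2, the neuronal polypyrimidine-tract protein, was higher than in each (1.54 ± 0.05 against muscle). Its relatives Ptbp1 and Ptbp3 were not called, with levels of 44.4, 53 and 58.6 CPM and 33.4, 38.3 and 45.9 CPM against up to 332 CPM and 242 CPM in lung. Srrm4, which promotes neuronal microexons, was called (0.75 ± 0.17 against heart) but not with circadian times 18, 22, 26 and 42 alone.

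Imprinted genes, expressed from the allele of 1 parent, summed to 10160 to 16790 CPM in hypothalamus and to at most 7427 CPM in adrenal and 2570 CPM in the other 4 tissues. Of 38 listed, 37 were tested, 22 were higher than in each tissue, 9 at least 4-fold, and 3 were lower than in each (Cdkn1c, Igf2r and Airn). Meg3 (chr12:109541001-109571726), a maternally expressed long noncoding RNA, was the gene with the largest difference in CPM between hypothalamus and the next tissue: 1684, 4259 and 6421 CPM against 137, 1156 and 1579 CPM in adrenal (1.95 ± 0.23). The libraries at 18, 22, 26 and 42 were its 4 lowest (1684 to 2516 CPM, against 3595 to 6421 CPM in the other 8). Peg3, a paternally expressed zinc-finger protein, stood at 782, 1174 and 1274 CPM against at most 105 CPM (4.04 ± 0.10), and Usp29, its neighbour in the same imprinted cluster, at 175, 238.1 and 288 CPM against at most 2.87 CPM (7.20 ± 0.19). Ndn and Magel2, from the region whose paternal copy is lost in Prader-Willi syndrome, stood at 747, 840.5 and 1038 CPM and 24.4, 70.2 and 88.5 CPM (2.88 ± 0.12 and 5.42 ± 0.27 against adrenal). No overlap with another tissue was seen for these 5. Cdkn1c, a growth inhibitor, stood at 5.46, 11.4 and 14.5 CPM (-1.53 ± 0.13 against kidney), and Dlk1 was not called against adrenal (-0.41 ± 0.22). The calls of Igf2, Mirg, Peg10 and Plagl1 were lost with circadian times 18, 22, 26 and 42 alone, and that of Asb4 without them and without the library at 18.

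The beta-protocadherins, adhesion proteins encoded by a tandem cluster of similar single-exon genes, moved as a block: 20 of 22 were higher in hypothalamus than in each tissue, though only 6 at least 4-fold. Pcdhb2 had the widest margin (log2 fold change 3.19 against adrenal), and Pcdhb16 and Pcdhb22 were not called (0.08 against lung and -0.09 against adrenal). Reads that match several members could be split by the counting, so single members are uncertain. The sum over the cluster was 133 to 163 CPM in hypothalamus and at most 94.8 CPM elsewhere (lung).

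Of the brain's other cells, oligodendrocytes gave the clearest signal. Of 15 of their markers 12 were at least 4-fold higher than in each tissue (median smallest log2 fold change 6.30), with Mal, Ugt8a and Pdgfra not called (kidney or lung was the closest tissue). Mbp, myelin basic protein, stood at 1685, 1905 and 2283 CPM against at most 147 CPM (4.69 ± 0.20 against muscle). Among 12 astrocyte markers 7 were higher than in each and 6 at least 4-fold. Slc1a2, the astrocytic glutamate transporter, stood at 1034, 1154 and 1278 CPM against at most 28.2 CPM (7.09 ± 0.46 against kidney), and Gfap, the astrocytic filament, at 239.8, 334 and 481 CPM against at most 5.02 CPM (6.93 ± 0.19 against adrenal). These 3 overlapped no other library. Aldh1l1, Gja1, Slc4a4, Fgfr3 and Acsbg1 were not higher than in each, with kidney, heart, lung or adrenal the closest tissue. Microglial markers gave 4 calls of 10, among them P2ry12 (2.11 ± 0.18 against lung) and Siglech (2.71 ± 0.31 against lung). Of 12 markers of tanycytes and ependyma, the cells that line the third ventricle, only Rax and Gpr50 were called. Ciliary genes such as Foxj1 were higher in lung (-2.09 ± 0.20). Foxj1, Tmem212, Ccdc153 and Col23a1 of this list were at least 4-fold above every tissue but lung. All 15 general neuronal markers were at least 4-fold higher than in each tissue (7051 to 8396 CPM in sum, at most 533 CPM in any other library).

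**Figure D4:**
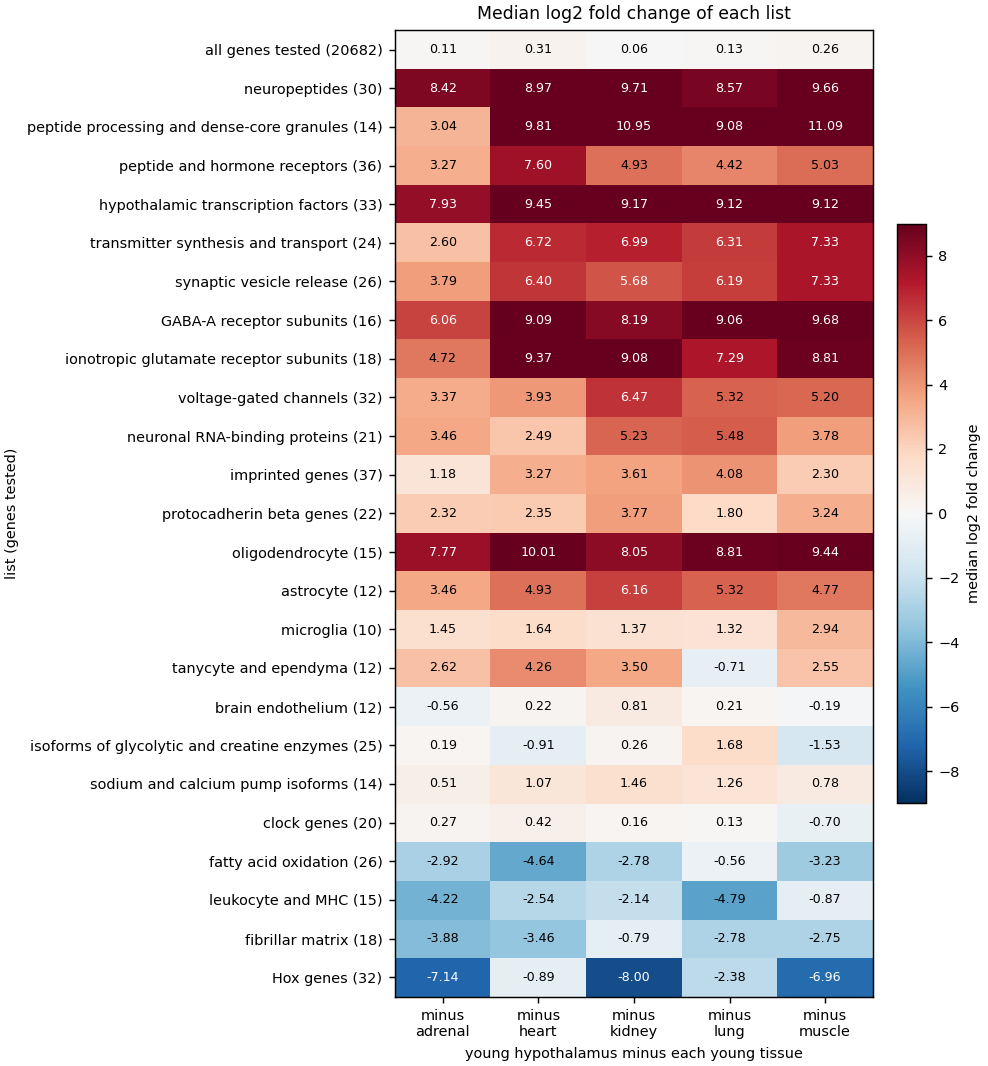
Median log2 fold change of hypothalamus minus each of the 5 tissues (colour and printed value) for the gene lists (rows), over the members tested. Neuropeptides, neuronal and oligodendrocyte lists are above 0 against all 5, and the lists for fatty acid oxidation, leukocytes and MHC, matrix and Hox genes are below 0 against all 5.

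Of 12 genes of brain endothelium 3 were higher than in each tissue, 4 were lower, and Cldn5, Abcb1a, Mfsd2a, Itm2a and Slc7a5 were neither. The share of higher calls was near the background of 22.2%, and the background of lower calls was 12.6%. The median log2 fold change of the list was -0.56 against adrenal, 0.22 against heart, 0.81 against kidney, 0.21 against lung and -0.19 against muscle. Slc2a1, the glucose carrier of the blood-brain barrier, Slco1c1, a thyroid hormone carrier, and Slco1a4 were higher than in each tissue (0.56 ± 0.10, 6.23 ± 0.22 and 2.42 ± 0.31 against the closest). Pecam1, Cdh5, Flt1 and Ly6c1, genes of vessels in most organs, were lower than in each. Pecam1 stood at 10.3, 15.4 and 21.2 CPM and was -2.50 ± 0.10 against kidney, the closest from below. No library of another tissue was as low.

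Of the genes lower in hypothalamus than in each tissue, the 10 with the widest margin among genes above 10 CPM in all 5 tissues were Fabp4, Aqp1, Cd300lg, Cd36, Dpep1, Myom2, Lpl, Tnfaip2, Ces1d and C1s1. Fabp4, a fatty acid carrier of fat and capillaries, stood at 0.0756, 0.268 and 1.03 CPM against at least 10 CPM on average in every other tissue (-6.91 ± 0.42 against lung, the closest from below). Cd36, the fatty acid translocase, stood at 4.9, 5.91 and 12 CPM (-6.47 ± 0.18 against muscle), and Lpl, which frees fatty acids from lipoproteins, at 7.18, 8.47 and 16.5 CPM (-4.80 ± 0.19 against lung). For all 3 the highest hypothalamic library lay below the lowest of the 60 others. Aqp1, a water channel of red cells, kidney and most capillaries, stood at 0.816, 1.75 and 11.6 CPM (-6.83 ± 0.30 against adrenal). Its highest value of 11.6 CPM was at circadian time 30, the library with the most counts of the kidney list.

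The enzymes of fatty acid oxidation were low as a list. Of 26 genes 15 were lower than in each tissue, against a background of 12.6%, and 3 were higher. Acadl, the long-chain dehydrogenase, stood at 45.5, 49.96 and 62.4 CPM (-1.26 ± 0.10 against lung) and Hadh at 29.1, 32.7 and 43.1 CPM (-1.61 ± 0.08 against lung). Neither overlapped another tissue. Lung was the closest from below for most members, and the median of the list was -0.56 against lung and -4.64 against heart. The 3 higher members were Cpt1c, a brain form of carnitine palmitoyltransferase that does little oxidation, and the acyl-CoA synthetases Acsl3 and Acsl6. Cpt1c stood at 78, 89.95 and 104 CPM against at most 31.6 CPM (2.12 ± 0.10 against adrenal). The calls of Cpt2, Echs1 and Hadha were lost with circadian times 18, 22, 26 and 42 alone. Of the 13 mitochondrially encoded protein genes 1 was lower than in each, and mitochondrially encoded genes took 1.80 to 2.44% of counts, between lung (1.29 to 1.70%) and heart (7.09 to 9.53%).

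Immune and connective tissue genes were low. Of 15 leukocyte and MHC genes tested, 8 were lower than in each tissue (background 12.6%) and none higher. Cd74, the chaperone of MHC class II, stood at 3.87, 13.7 and 23.4 CPM (-2.26 ± 0.23 against muscle) and H2-K1, a class I gene, at 42.1, 47.6 and 55.2 CPM (-1.97 ± 0.10 against muscle). H2-K1 overlapped no other library, and Cd74 overlapped muscle (lowest 22.3 CPM). Of 18 genes of fibrillar matrix 8 were lower than in each, beside the same background. Col3a1, a collagen of soft connective tissue, stood at 2.36, 7.69 and 13 CPM (-2.93 ± 0.31 against kidney) and Col1a1 at 2.65, 9.47 and 16.9 CPM (-1.52 ± 0.29 against kidney). Both were lowest in the library at 18.

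Hox genes, which give positional identity to the trunk and hindbrain and are little used in forebrain, were low. Of 39 listed, 32 were tested and 14 were lower than in each tissue (background 12.6%), 10 of them at least 4-fold (background 2.11%), and none was higher. The sum over the family was 0.660 to 8.09 CPM in hypothalamus, and it reached 579 to 724 CPM in kidney and 6.54 to 10.2 CPM in heart, the lowest of the others. Hoxb4 stood at a mean of 0.168 CPM in hypothalamus against 1.36 CPM in heart and 27.8 CPM in adrenal (log2 fold change -3.34 against heart). Hoxa5 stood at 0.0939 CPM against 66.1 CPM in lung and 0.479 CPM in heart (-2.66 against heart). The 2 highest family sums, 8.09 and 6.29 CPM, were at circadian times 30 and 42, and of these the one at 30 overlapped heart.

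Among the 10 genes with the largest CPM difference over the next tissue were, after Meg3, Mbp, Snhg11, Kif5a, Sparcl1, Nap1l5, Map2 and Slc1a2. Snhg11, a noncoding host of small nucleolar RNAs, stood at 810.1, 1892 and 2606 CPM against at most 248 CPM (2.78 ± 0.17 against kidney). Kif5a, a neuronal motor for axonal transport, stood at 1332, 1489 and 1863 CPM against at most 46 CPM (5.67 ± 0.13 against adrenal), and Map2, which binds dendritic microtubules, at 1031, 1120 and 1459 CPM against at most 39.4 CPM (5.83 ± 0.18 against adrenal). The ranges were separate from all other libraries for Snhg11, Kif5a, Map2, Sparcl1 and Nap1l5.

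Part of the profile was shared with a single other tissue. A gene was counted as shared where both tissues were at least 4-fold above each of the remaining 4 and hypothalamus was not 4-fold above its partner. No lower bound was set, so a shared gene can be far lower in hypothalamus than in its partner. There were 164 such genes with adrenal (0.793% of those tested), 51 with heart (0.247%), 189 with kidney (0.914%), 303 with lung (1.47%) and 89 with muscle (0.430%). Those shared with kidney include Kap, Slc34a1 and Acsm2, tubule genes that were highest in the hypothalamic library at 30. They also include Umod, Slc12a1, Slc12a3 and Slc22a6 of the kidney list. Without that library and those at 42, 46, 50 and 54 the count was 177. The kidney list summed to at least 22.6 CPM in every hypothalamic library. It reached at most 107 CPM in adrenal, 6.675 CPM in heart, 3.96 CPM in lung and 0.656 CPM in muscle. The recount therefore did not remove kidney transcripts, and their part in the 189 was not tested. With adrenal the widest margins were those of Scg2, Kcnk9, Caln1 and Trank1. Scg2, a granule protein, stood at 831, 924 and 1193 CPM against 19.97, 1088 and 1529 CPM (0.06 ± 0.22, adjusted p 0.797). Scg2 was low in adrenal in the library at 54, and the 2 tissues otherwise overlapped.

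The 303 genes shared with lung include the ciliary genes Foxj1, Drc1, Spag16, Hydin and Tekt4 and many of the Cfap and Dnah families. They also include Tmem212, Ccdc153 and Col23a1 of the tanycyte and ependyma list. Ptgds, which makes prostaglandin D2 in meninges and heart, stood at 439.9, 840.4 and 1422 CPM against 160.3, 211 and 335 CPM in heart (1.62 ± 0.18), with few counts in muscle. Calb1, a calcium buffer of neurons and of the distal nephron, stood at 219, 272 and 316 CPM against 348, 377 and 422 CPM in kidney (-0.69 ± 0.09). The ranges of these 2 pairs did not overlap. Lhx1 and its antisense neighbour Lhx1os were also shared with kidney; whether the counting used strand is not stated, so the 2 cannot be told apart where they overlap. Prmt8, a membrane-bound arginine methyltransferase, stood at 20.5, 22.9 and 36 CPM against 12.1, 18.5 and 27.6 CPM in lung (0.62 ± 0.17), and Wnt7a, a secreted signal, at 8.86, 14.1 and 19.6 CPM against 17.9, 22.2 and 33.9 CPM (-0.52 ± 0.23). Kcnc1, a potassium channel for fast firing, stood at 117, 206 and 244 CPM against 93.5, 114 and 143 CPM in muscle (-0.01 ± 0.14, adjusted p 0.932), and the fold change was 0.68 without normalization factors.

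The hypothalamus houses the central clock, the suprachiasmatic nucleus. Of 15 genes known from that nucleus 9 were at least 4-fold higher than in each tissue. Vip, a peptide that couples its neurons, stood at 13.9, 18.1 and 24.4 CPM against at most 1.02 CPM (5.09 ± 0.24 against adrenal). Nms, a peptide made in few other places, stood at 1.02, 1.79 and 3.06 CPM with no count in the 60 others (at least 93.1-fold higher). Rorb stood at 38.8, 50.6 and 57.8 CPM against at most 2.32 CPM (5.03 ± 0.21 against heart). Vip and Rorb overlapped no other library. Of 20 genes on the clock list, in contrast, only Rorb, which is also on the list of that nucleus, was higher than in each tissue. On the clock list 1 gene was lower, and the median of the mean log2 fold changes was 0.04. By the median, genes of the clock list spread less over the 12 circadian times in hypothalamus. Their median SD was 0.188 log2 units against 0.358 in muscle and 0.752 to 0.822 in the other 4. Rora went the other way, with an SD of 0.396 in hypothalamus and 0.103 to 0.292 in the other tissues. The spread of the bulk tissue adds that of all its cells, and the difference in spread was not tested.

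The genes that spread most among the 12 hypothalamic libraries included markers of other brain regions and of kidney. Over the genes tested with a mean above 10 CPM (Gh was not among those tested), the 8 with the largest SD were Slc17a7, Shox2, Ttr, Kap, Slc34a1, Acsm2, Dact3 and Crym. Kap, Slc34a1 and Acsm2, genes of the kidney tubule, were highest together at circadian time 30 (121, 72.5 and 63.3 CPM, against 2.99 to 29.9, 1.99 to 15.1 and 1.60 to 13.9 CPM in the other 11). Dact3, a modulator of Wnt signalling, stood at 14.1 to 21.9 CPM at 18, 22, 26 and 42 and at 97.7 to 119.96 CPM at the other 8. Its transcript has a GC content of 66.4%, against a median of 49.4% for all genes tested. That of Meg3, whose 4 lowest libraries were the same, has 49.2%. The part of GC content in either pattern was not tested. Dact3 was called higher than in each (1.59 ± 0.22 against heart), with a value of 2.05 without these 4 libraries and -0.45, no longer a call, with them alone. Among the peptides and the 15 genes with the widest margin, Pomc, Otp, Cck, Prok2, Nts and Ucn3 spread most. Nts, the neurotensin precursor, stood at 78.7 CPM at 18 and 28.6 CPM at 38, and Cck at 66.3 CPM at 42, where Slc17a7 was also highest.

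By position and structure the 4-fold higher genes differed from all genes tested in gene length. Protein-coding members spanned a median of 28.2 kb against 23.8 kb for all tested and 17.8 kb for the 4-fold lower genes, and 28.0% exceeded 100 kb, against 14.4% and 9.97%. The X chromosome held 6.73% of the 4-fold higher genes, 3.21% of all and 1.84% of the 4-fold lower. Median GC content was 49.7%, 49.4% and 50.9%. These are descriptions without a test.

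The same genes were examined in libraries of the aged and old mice. Of the 1898 4-fold higher genes, 1854 were tested in the aged libraries, where 1850 were higher than in each tissue and 1742 at least 4-fold (background 8.93%). In the old libraries 1601 were tested, 1583 were higher than in each and 1340 at least 4-fold (background 7.11%). The old hypothalamic libraries were shallower (1.83 to 21.9 M counts), and fewer genes passed the filter there. Of the 436 4-fold lower genes, 352 of 435 tested were 4-fold lower again in aged (background 2.14%) and 326 of 424 in old (background 2.62%). The log2 fold change of Pmch against the closest tissue was 14.59 in aged and 13.88 in old libraries, and that of Hcrt 12.30 and 11.76. The contrast of hypothalamus with the mean of the 5 tissues differed between old and young for 27.9% of 22281 genes by an interaction term. For genes with no count in a group such a term depends on the prior count and was not read.

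**Figure D5:**
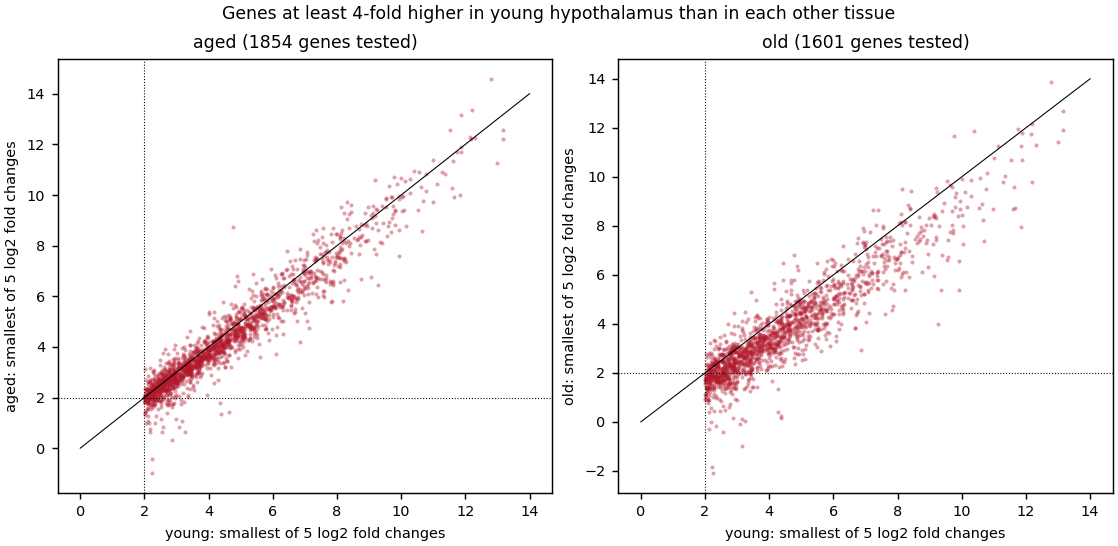
Smallest of the 5 log2 fold changes of each 4-fold higher gene in the young libraries (horizontal axis) against the same value in the aged and the old libraries (vertical axes). Of 1854 genes tested in aged libraries 1742 were again at least 4-fold higher than in each tissue (background 8.93%). Of 1601 tested in old libraries 1340 were (background 7.11%).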

How the data were processed

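Poly(A) RNA-seq of pooled mouse libraries was deposited as a table of counts per gene and a table of CPM. Reads were aligned with HISAT2 and counted with HTSeq on GRCm38 (mm10), per the submitters' processing notes; no source used here gives their versions, the annotation, the strand setting or filters. The deposited CPM equals count over library total (largest difference 4.98e-06), and the deposited counts were tested. The 72 young libraries entered 1 fit with edgeR 4.0.16 (R 4.3.3; TMM factors, filterByExpr by tissue with a minimum count of 10, robust quasi-likelihood, Benjamini-Hochberg adjusted p under 0.05), with 1 mean per tissue. SE is the absolute log2 fold change over the square root of F. A gene is called against each tissue where all 5 contrasts pass in the same direction; the 4-fold call adds an absolute log2 fold change of at least 2 in all 5. Of 55376 gene names, 20682 were tested, and 20468 of these matched GENCODE M21 once, which gave positions and exon lengths. Fits were tested on simulated counts (188 of 200 changed genes called, 0 of 18793 unchanged). There each unchanged gene had the same mean in every tissue, so the simulation does not cover scaling between tissues where most genes differ.

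Members of the lists and the lists themselves (39) were chosen with earlier results of these data known. Genes named are list members the results turn on; the 15 with the widest margin above and the 10 below; the 10 with the largest CPM difference; 4 shared genes per tissue; and the most variable genes. Alternatives: median-of-ratios size factors, no filter, DESeq2 1.42.0, circadian time as a block or as cosine and sine, other thresholds, single cycles, thinning, no mitochondrial genes, each hypothalamic library left out, and, after seeing the data, sets of libraries left out and no normalization factors. Some members of the lists and rules are not reported here by name.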

Additional observations from a re-analysis of the deposited data

Results flagged for a closer look

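For 5 of the genes named by their margin, the contrast of hypothalamus with the mean of the 5 other tissues differed between the old and the young mice, by an interaction term in edgeR's quasi-likelihood test over the libraries of all 3 ages (adjusted p under 0.05, as for 27.9% of all genes tested). Pmch, the melanin-concentrating hormone precursor, was 1.25 log2 units further above the other tissues in old than in young mice (SE 0.364, adjusted p 0.0209), a value that rests on 1 to 11 counts per tissue in the young peripheral libraries. Aqp1 was further below (-1.22, adjusted p 5.09e-05), as was Dpep1 (-0.76, adjusted p 0.0391). Lpl (0.53, adjusted p 0.0176) and Tnfaip2 (1.68, adjusted p 4.88e-10) were less far below in old mice. All 5 kept the direction of the young contrast in the old libraries. The old libraries differ from the young in depth. The hypothalamic ones also spread more by base composition. The highest-GC class minus the lowest-GC class ran from -1.12 to 0.72 log2 units in old and from -0.431 to 0.250 in young. In the young comparison Aqp1 and Dpep1 were both highest in kidney among the 5 tissues. Kap, a kidney tubule gene, stood at 2.99 to 121 CPM in young and at 0 to 3.82 CPM in old hypothalamic libraries. The part of depth, of base composition or of kidney transcripts in these differences was not tested.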

How the results depend on the processing

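Of the counts over genes, 400 alternative values stayed within 1.5 times the reported count and 10 did not. For the genes with the widest margins and the largest differences in level, 315 alternative values kept direction and call. Other named genes did not: the value against the closest tissue turned negative for Slc17a7 without the libraries at 30, 42, 46, 50 and 54 (-0.36), for Shox2 without those at 34, 38, 58 and 62 (-0.02), and with those at 18, 22, 26 and 42 alone for Shox2 (-0.75) and Dact3 (-0.45). The cause was not tested. Testing against a minimum of 2-fold (glmTreat) left 9524 genes against adrenal, 10871 against heart, 10280 against kidney, 10160 against lung and 11251 against muscle, 2590 higher than in each and 899 lower than in each. Without the filter, 3050 genes were at least 4-fold higher, and a minimum of 16-fold left 951. Without normalization factors, 32 genes were shared with heart. Leaving out 1 hypothalamic library at a time gave 1828 to 1849 genes 4-fold higher and 481 to 558 4-fold lower. It gave 4163 to 4213 higher and 3024 to 3112 lower than in each. These runs used another TMM reference library, adrenal at 54 in place of kidney at 18. That adrenal library is the one with only 693 CPM of the adrenal list. The share of higher calls among genes different from each tissue went from 63.8% to between 57.5% and 58%. The part of the reference library in this shift was not tested.

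Circadian time as a block (a replicate block across tissues) gave 1912 genes 4-fold higher and 446 lower and moved no count by over 1.5 times. Depth limits the peripheral side of the peptide contrasts, such as that of Pmch with 1 to 11 counts per tissue.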
